A study of Homo sapiens with 14 samples.

Results

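Immediate early response genes were examined in MEL1 cells, a human embryonic stem cell line, on the way from pluripotency to β-like cells. The 10 genes were FOS, FOSB, FOSL1, JUN, JUNB, JUND, ATF3, EGR1, IER2 and IER3, out of 60624 Ensembl gene identifiers listed per library. They were chosen by name, with levels in these same libraries already known. Their levels and differences are therefore described without p-values.

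There were 14 RNA sequencing libraries in 9 groups, all from MEL1 cells, which the study's methods describe as carrying a GFP reporter at INS. Batch 1 held 1 library each of hPSC (undifferentiated cells kept on CF1 feeder cells), DE (definitive endoderm), PP2 (pancreatic progenitors) and SC-β (β-like cells differentiated without an expansion step). Batch 2 held pancreatic progenitors expanded in culture (ePPs), with 2 libraries of passage 9 (ePP-P9) and 2 of passage 21 (ePP-P21). It also held 2 libraries of ePP-β, which are β-like cells derived from ePPs of a passage not given in the labels. Batch 3 held 2 libraries each of pancreatic progenitors treated for 7 days with DMSO, the solvent, or with 1 μM I-BET151, which blocks BET bromodomain proteins from binding acetylated histones. Per the study's methods, ePPs grew on feeder cells in medium with EGF, bFGF, the TGFβ receptor inhibitor 616452 and 1 μM I-BET151. Both ePP groups therefore carried the inhibitor. The paper describes progenitors treated for 7 days as kept in the same base of EGF, bFGF and 616452, without or with I-BET151. The β-like cells were finished in 2 other media, which per the methods held 616452 but not EGF, bFGF or I-BET151. The earlier of the 2 held forskolin, which raises cAMP, and the final one did not. Medium, inhibitor and cell state cannot be told apart between ePPs and ePP-β. The methods list no I-BET151 in the differentiation media that lead to PP2 and SC-β. Between PP2 and SC-β, medium and cell state cannot be told apart. Groups of 1 library have no replicate check, and batch and group cannot be told apart between batches. The labels do not say whether replicates came from separate cultures, so their spread may be technical.

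Immediate early genes are those that a cell transcribes within minutes of a growth factor, stress or depolarization signal, without needing new protein. FOS and JUN family proteins pair with each other to form the transcription factor AP-1, which binds DNA as a dimer. The MAP kinase ERK and the serum response factor switch on FOS and EGR1, and their messenger RNAs are short-lived, so that their level follows recent signalling. In β cells glucose and cAMP are known to induce several of them.

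The genes lie on 6 chromosomes (GRCh38). FOS (ENSG00000170345) lies on chromosome 14 from 75278826 to 75282230, on the forward strand with 4 exons. EGR1 (ENSG00000120738) lies on chromosome 5 from 138465479 to 138469303, on the forward strand with 2 exons. JUND (ENSG00000130522) lies on chromosome 19 from 18279694 to 18281622, on the reverse strand, in 1 exon without introns. JUN and JUNB also have 1 exon, on chromosomes 1 and 19. FOSL1 (ENSG00000175592) lies on chromosome 11 from 65892049 to 65900573. FOSB overlaps ERCC1 on the opposite strand, JUNB overlaps HOOK2, IER2 overlaps 2 long noncoding genes, and IER3 overlaps HCG20 and IER3-AS1. The use of strand in counting was not stated, so reads of these 4 genes and of their opposite-strand partners cannot be told apart.

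Promoter windows in RefSeq (GRCh38.p14) were found for 8 of the 10 genes, and FOSL1 and IER3 had none in the table. Each window of 250 bases before to 50 after the start site was searched on both strands for the CArG box (the binding motif of the serum response factor), the cAMP response element TGACGTCA, and the AP-1 motif TGACTCA or TGAGTCA. These motifs were held by 1.29%, 1.85% and 4.95% of 35116 windows. Only EGR1 and JUND held a match among the windows of the 8 genes. The 250 bases before the start are shown for FOS and EGR1, whose levels ran together across libraries, and for JUND, the most abundant of the FOS and JUN genes. They are chr14:75278578-75278827 (forward strand), chr5:138465229-138465478 (forward strand) and chr19:18281623-18281872 (reverse strand), each written 5′ to 3′. Capitals mark the motif matches.
FOS: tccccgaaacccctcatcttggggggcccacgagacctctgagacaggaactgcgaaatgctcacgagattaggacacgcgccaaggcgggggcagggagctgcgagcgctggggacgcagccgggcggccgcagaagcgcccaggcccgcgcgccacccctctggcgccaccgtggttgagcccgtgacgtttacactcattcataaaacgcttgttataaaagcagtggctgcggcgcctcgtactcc
EGR1: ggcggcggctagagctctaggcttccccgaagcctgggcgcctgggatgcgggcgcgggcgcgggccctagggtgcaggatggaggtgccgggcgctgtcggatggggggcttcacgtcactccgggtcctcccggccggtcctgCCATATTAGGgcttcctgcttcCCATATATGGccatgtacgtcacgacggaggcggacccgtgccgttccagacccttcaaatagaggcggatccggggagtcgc
JUND: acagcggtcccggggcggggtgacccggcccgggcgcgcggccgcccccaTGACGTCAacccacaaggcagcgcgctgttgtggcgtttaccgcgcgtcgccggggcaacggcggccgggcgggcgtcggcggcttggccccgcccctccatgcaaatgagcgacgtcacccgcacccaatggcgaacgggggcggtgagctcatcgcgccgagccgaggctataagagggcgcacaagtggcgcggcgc
EGR1 held 2 CArG boxes, at -105 to -96 and at -83 to -74 from the start site. JUND held 1 cAMP response element at -200 to -193. The FOS window shown held none of the 3 motifs, which says only that these letters are not in it.

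Levels are given in TPM, the share of a library's transcripts that a gene takes after correction for transcript length, so levels of different genes can be compared. The stage markers POU5F1, SOX17 and PDX1 followed the labels, while NKX6-1 was low in PP2. POU5F1, a pluripotency factor, stood at 3401 TPM in hPSC and SOX17, an endoderm factor, at 1140 TPM in DE. PDX1, a pancreatic progenitor factor, ranged from 74.4 to 251 TPM over PP2, the ePP groups, DMSO and I-BET151. NKX6-1, which the paper uses with PDX1 to define PP2, was 23.5 TPM in PP2. It was 176 to 213 TPM in ePPs, 103 and 51.5 TPM in DMSO, and 446 and 208 TPM in I-BET151. Both INS and GCG (glucagon, the α cell hormone) were high in β-like cells, with GCG above INS in SC-β (74281 against 20658 TPM) and in ePP-β replicate 1 (14107 against 10916 TPM). Transcripts listed as markers of other cell types were also found in batch 1. Mesenchyme markers (10 genes) summed to 569 TPM in hPSC, 54.4 in DE, 1551 in PP2 and 2792 in SC-β. Endothelial markers (7 genes) summed to 22.4, 14.3, 90.4 and 16.4 TPM in the same order. The hPSC mesenchyme sum was mostly THY1 (342 TPM) and COL1A1 (195 TPM), with COL3A1 at 0.0111 TPM and DCN and LUM listed at 0. In that library 5 of the 10 mesenchyme markers were at or above 1 TPM. Its endothelial sum was mostly KDR (15.9 TPM), with PECAM1 at 0.0432 and CDH5 at 0.0571 TPM, so these sums alone do not show such cells in hPSC. The part of other cell types in the levels of these libraries was not tested. Libraries had between 14982 and 17578 genes at or above 1 TPM, and ribosomal protein genes took 9.81% to 27.9% of the listed TPM. The number of reads is not recorded in TPM, so the depth is unknown.

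**Figure D1:**
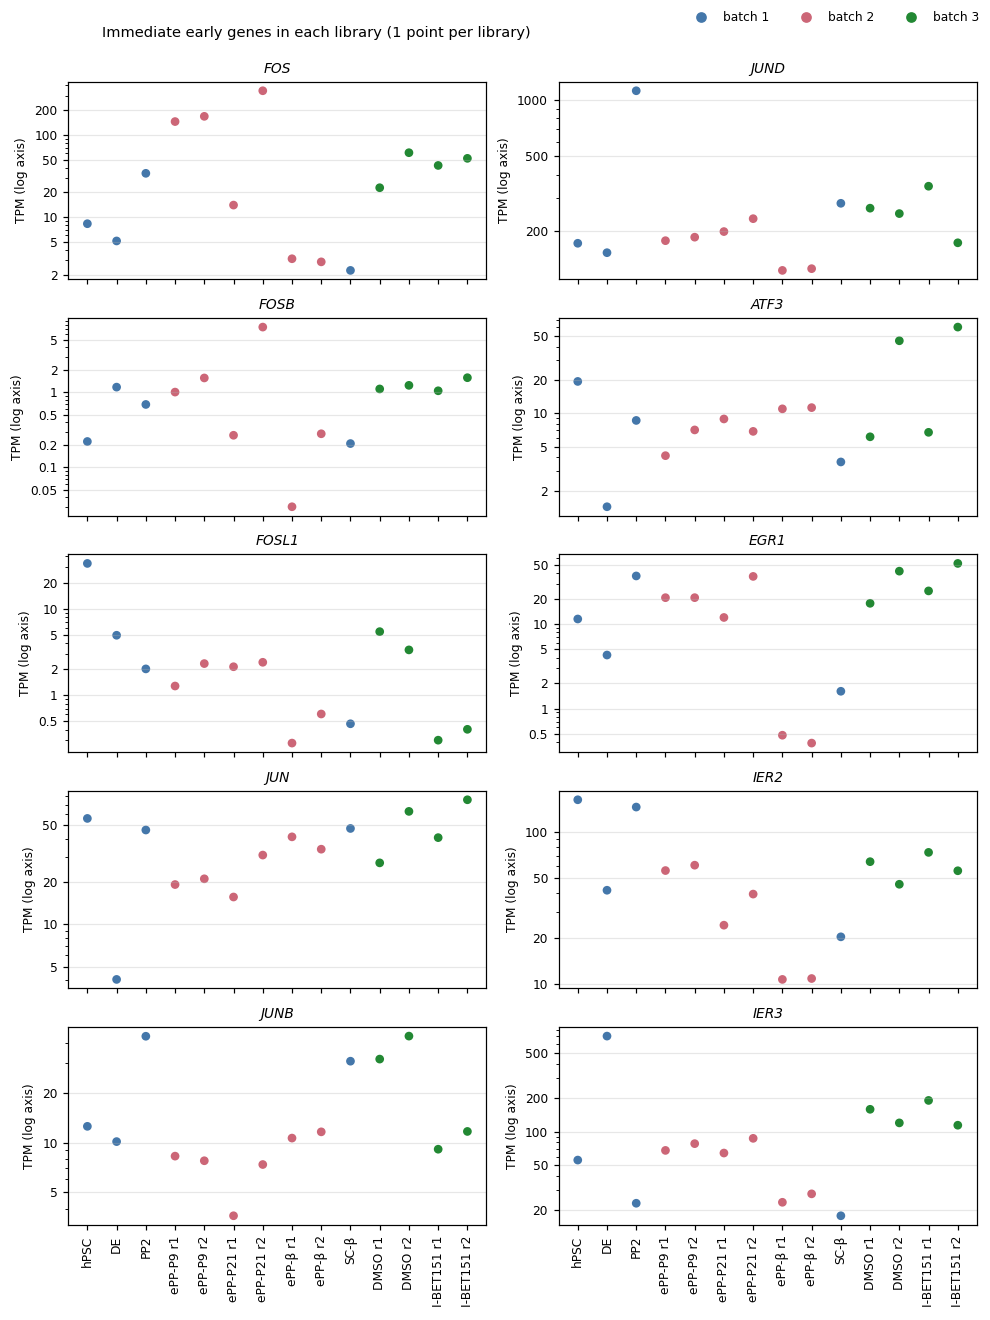
TPM (log axis) of the 10 immediate early genes in each of 14 libraries, with 1 point per library coloured by batch (r1 and r2 are replicates 1 and 2). FOS and EGR1 are lowest in the β-like libraries, FOS splits between the ePP-P21 replicates (13.99 and 344 TPM), and ATF3 splits between replicates of DMSO and of I-BET151.

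The FOS family members differed in level by orders of magnitude, with FOS itself highest in ePPs. FOS encodes the founding FOS protein, which binds DNA as AP-1 only when paired with a JUN protein. Its level was 8.30 TPM in hPSC, 5.12 in DE, 34.0 in PP2 and 2.24 in SC-β. The ePP-P9 libraries held 145 and 168 TPM. The ePP-P21 libraries held 13.99 and 344 TPM. Thus 3 of 4 ePP libraries lay above every other library of the series, while ePP-P21 replicate 1 lay below PP2 and all 4 libraries of batch 3. FOS was 22.7 and 60.7 TPM in DMSO, beside 42.4 and 51.8 TPM with the inhibitor. Both ePP-β libraries were low and close together, at 3.11 and 2.85 TPM. In the order of group means, ePP-P21 (179 ± 233 TPM, SD, n = 2) and ePP-P9 (157 ± 16.2, n = 2) overlapped. The neighbours I-BET151 (47.1 ± 6.61, n = 2) and DMSO (41.7 ± 26.8, n = 2) also overlapped, as did DMSO and PP2. Each lower pair of neighbours held at least 1 group of 1 library, so a lack of overlap there means little. In bulk RNA, fewer cells with a transcript and less of it per cell cannot be told apart.

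FOSB, a FOS relative that neurons use in long-lasting responses, was scarce everywhere. It was at most 1.57 TPM in 13 libraries and reached 7.46 TPM in ePP-P21 replicate 2. In ePP-P21 replicate 1 it was 0.268 TPM, so the same library was low for FOS and FOSB. FOSL1 encodes FRA-1, an AP-1 subunit that persists after the first wave and is tied to migrating and invasive cells. It was highest in hPSC at 33.3 TPM, with 4.92 in DE, 2.01 in PP2 and 0.467 in SC-β, each from 1 library. The ePP libraries held 1.27, 2.32, 2.13 and 2.40 TPM, and ePP-β 0.279 and 0.606 TPM. DMSO held 5.42 and 3.33 TPM against 0.302 and 0.403 TPM in I-BET151. Both inhibitor libraries were thus below every DMSO library and lay in the range of the β-like cells.

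Among JUN family genes, JUND was the most abundant in every library. JUND is the JUN protein that resting cells hold steadily, and it is less inducible than JUN and JUNB. It ranged from 123 to 346 TPM in 13 libraries and stood at 1125 TPM in PP2. That PP2 value was 7.37 times DE and 4.01 times SC-β, in 1 library each. PP2 and SC-β also held the most mesenchyme marker transcripts of the series, and their part in these levels was not tested. JUN, the main partner of FOS, was lowest in DE at 4.06 TPM. It stood at 55.9 TPM in hPSC, 46.3 in PP2 and 47.4 in SC-β. The ePP libraries held 19.0, 20.9, 15.5 and 30.8 TPM, all below the ePP-β libraries at 41.4 and 33.9 TPM. JUN was therefore higher in ePP-β than in ePPs, the reverse of FOS. Among the ePP libraries JUN instead had the same order as FOS. Both were lowest in ePP-P21 replicate 1 and highest in ePP-P21 replicate 2.

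JUNB, which can restrain JUN in cell growth, was highest in PP2 (43.7 TPM), DMSO (31.8 and 43.8 TPM) and SC-β (30.9 TPM). It was 12.5 TPM in hPSC and 10.1 TPM in DE. The ePP libraries held 8.28, 7.76, 3.62 and 7.37 TPM, and ePP-β 10.6 and 11.6 TPM. I-BET151 libraries held 9.11 and 11.7 TPM, near ePP-β and apart from DMSO. ATF3 encodes a stress-induced factor of the ATF family that pairs with JUN proteins. It ranged from 1.43 TPM in DE to 19.4 TPM in hPSC among the libraries of batch 1. In batch 2 it was narrow, from 4.14 to 11.2 TPM. In batch 3 it was 6.13 and 45.2 TPM in DMSO, and in I-BET151 6.72 and 60.1 TPM, so replicate 2 was the high library in both groups.

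The summed TPM of the 6 FOS and JUN genes showed how the pool of AP-1 messages was made up. JUND led in 13 of 14 libraries, with 47.9% to 89.9% of the sum. FOS led in ePP-P21 replicate 2, with 55.1% against 37.2% for JUND. Its share was 41.3% and 43.6% in ePP-P9, 5.99% in ePP-P21 replicate 1, and 1.75% and 1.63% in ePP-β. PP2, where FOS was 34.0 TPM, had a FOS share of 2.72%, with JUND at 89.9% of the sum. In batch 3 the FOS share was 6.46% and 14.5% in DMSO and 9.64% and 16.5% in I-BET151, ranges that overlap. FOSL1 took 11.8% of the sum in hPSC and at most 2.77% in the other libraries. JUN took 23.3% and 19.4% in ePP-β against 4.93% to 6.66% in the ePP libraries. These are shares of messenger RNA and say nothing of protein or of dimers.

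**Figure D2:**
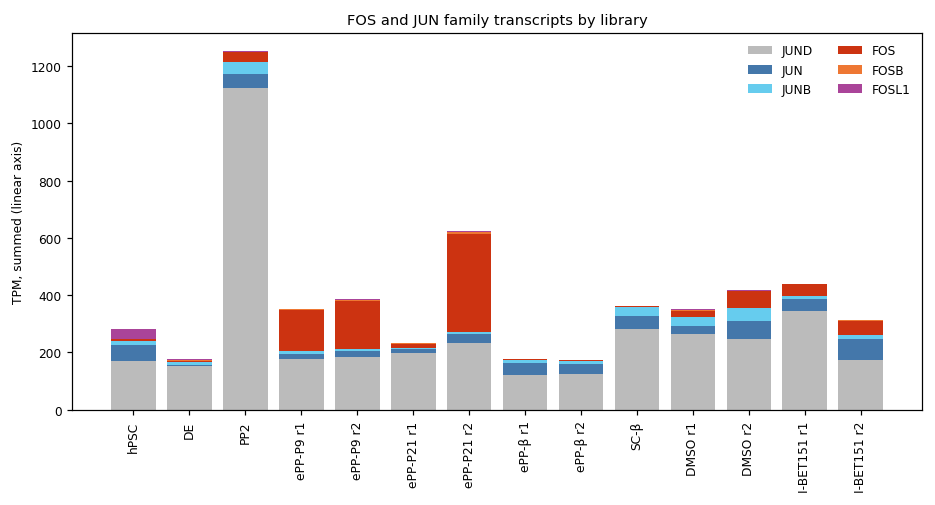
Summed TPM (linear axis from 0) of JUND, JUN, JUNB, FOS, FOSB and FOSL1 in each of 14 libraries, stacked by gene. JUND makes up the bulk of most bars, the tallest being PP2, and FOS is the large upper block in both ePP-P9 libraries and in ePP-P21 replicate 2.

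EGR1, a zinc finger factor induced by ERK, had the pattern nearest to FOS among the other 9 genes. Its level was 20.5 TPM in each library of ePP-P9. It was 11.9 and 36.5 TPM in ePP-P21, and 0.483 and 0.390 TPM in ePP-β. It was 11.5 TPM in hPSC, 4.29 in DE, 37.0 in PP2 and 1.60 in SC-β. DMSO held 17.6 and 42.2 TPM, and the inhibitor libraries 24.6 and 52.0 TPM. The 3 β-like libraries were thus below all 11 others. Across 14 libraries the Pearson correlation of log2(TPM + 1) was 0.83 between FOS and EGR1, 0.79 between FOS and FOSB, 0.75 between JUN and ATF3 and 0.06 between FOS and JUN. Within the 6 libraries of batch 2 the correlation of FOS and EGR1 was 0.94. These libraries share groups and batches, and the correlations are given as descriptions.

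IER2, an early response protein that acts in the nucleus, was highest in hPSC (163 TPM) and PP2 (146 TPM). It stood at 41.5 TPM in DE and 20.5 TPM in SC-β. It was 55.9 and 60.6 TPM at passage 9 of ePPs, 24.4 and 39.1 TPM at passage 21, and 10.8 and 10.9 TPM in ePP-β. The groups of batch 2 were therefore stepped with no overlap, whereas DMSO (63.9 and 45.4 TPM) and I-BET151 (73.5 and 55.7 TPM) overlapped. IER3, which acts on cell survival and is also induced by NF-κB, had a different pattern. It stood at 701 TPM in DE, 12.6 times hPSC (55.8 TPM) and 30.3 times PP2 (23.1 TPM), each from 1 library. SC-β held 17.9 TPM, and ePP-β 23.6 and 28.0 TPM. The ePP libraries held 68.0, 78.1, 64.4 and 87.0 TPM, and those of batch 3 ranged from 114 to 189 TPM with both groups overlapping.

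The replicate libraries of ePP-P21 stood apart in these genes. In ePP-P21 the FOS level of replicate 2 was 24.6 times that of replicate 1, a log2(TPM + 1) difference of 4.52 against a median size of 0.18 over 15049 genes at or above 1 TPM in both libraries. That difference ranked 2 in size among those genes, behind MAN1B1-DT, a divergent transcript (3.00 and 141 TPM). EGR1 ranked 78, with a difference of 1.54, and JUN (0.94) and JUNB (0.86) also passed the 95th percentile of 0.72. Of the 9 members at or above 1 TPM in both libraries, 8 were higher in replicate 2, against 69.5% of all genes. Among the other early response genes, 27 of 33 were higher in replicate 2, with a median difference of 0.19 against 0.11 over all genes. As examples picked by hand, DUSP1, a phosphatase that switches off MAP kinases, stood at 18.5 and 59.2 TPM, and NR4A1, an inducible nuclear receptor, at 2.53 and 7.85 TPM. The 6 genes of that list that were lower in replicate 2 included CEBPD (28.5 and 25.5 TPM) and GEM (5.93 and 4.74 TPM). In ePP-P9, 9 of 10 members were also higher in replicate 2, against 64.0% of all genes, with a median difference of 0.16 against 0.66 in ePP-P21. There FOS differed by 0.21, EGR1 by less than 0.01, FOSL1 by 0.54 and ATF3 by 0.65, none past the 95th percentile of 0.67. Ribosomal protein genes took 20.8% and 19.8% of TPM in the ePP-P21 libraries and the mesenchyme markers summed to 95.2 and 64.3 TPM. Their part in the difference was not tested.

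Among the 10 genes, ATF3 had the largest replicate difference in batch 3. It was 2.70 in DMSO, ranked 29 of 15186 genes, and 2.98 in I-BET151, ranked 39 of 14892. DDIT3, a partner of ATF proteins that is induced by endoplasmic reticulum stress, was 31.8 TPM in replicate 1 and 125 TPM in replicate 2 of DMSO, and 16.6 and 130 TPM in those of I-BET151. TRIB3 and CHAC1, stress response genes chosen after their values were seen, differed in the same way. CHAC1 was at 17.2 and 152 TPM in DMSO, and with the inhibitor at 5.69 and 114 TPM. FOS differed by 1.38 in DMSO, just over the 95th percentile of 1.32, and by 0.28 in I-BET151. Replicate 2 libraries of batch 3 also had more of their TPM in ribosomal protein genes (27.9% and 27.8%) than replicate 1 libraries (20.4% and 16.8%), and the part of this in the difference was not tested. The ePP-β replicates differed by 0.09 for FOS, the smallest of the 5 groups, and by 0.09 for EGR1. EGR1 was below 1 TPM in both (0.483 and 0.390 TPM), where the log2(TPM + 1) scale shrinks any difference.

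**Figure D3:**
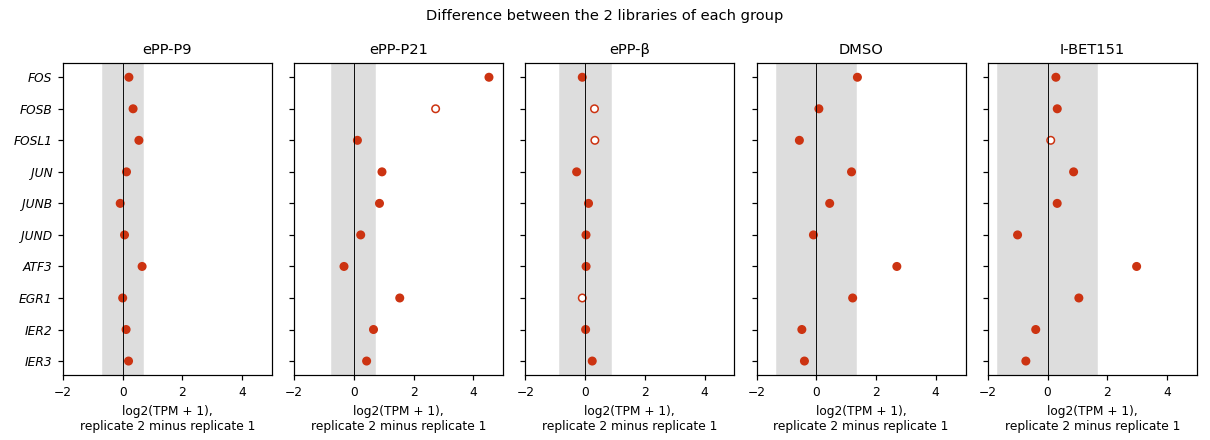
Difference of log2(TPM + 1) between replicate 2 and replicate 1 for the 10 genes in each of the 5 groups with 2 libraries. The grey band reaches to the 95th percentile of the size over all genes at or above 1 TPM in both libraries, and open points are genes below 1 TPM in a library. FOS, EGR1, JUN, JUNB and FOSB (an open point) lie outside the band in ePP-P21. ATF3 lies outside it in DMSO and I-BET151, and FOS just outside it in DMSO.

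The effect of the BET inhibitor was compared over 7 days in progenitors of batch 3. FOSL1 and JUNB were lower in both I-BET151 libraries than in both DMSO libraries, and the other 8 genes overlapped. FOSL1 averaged 4.37 ± 1.47 TPM (SD, n = 2) in DMSO and 0.352 ± 0.0715 TPM (n = 2) in I-BET151, a ratio of 12.4. Its lowest DMSO value was 8.27 times its highest I-BET151 value. JUNB averaged 37.8 ± 8.46 and 10.4 ± 1.80 TPM, a ratio of 3.64, with a gap of 2.73 times. On the log2(TPM + 1) scale, which understates the change of low genes, FOSL1 differed by -1.96 (SE 0.29) and JUNB by -1.76 (SE 0.28). FOSL1 passed the filter on low values through the DMSO libraries alone. Among the other 8 genes the differences lay between -0.06 and 0.42, each smaller than its own SE. The 2 genes below without overlap made 2 of 10, beside 18.0% of all 16687 genes tested that did so, so a share of this size was common. Without overlap in either direction the share of all genes was 46.8%.

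By limma, 35 of 16687 genes were called in this comparison (0.210%), of which 1 was higher (0.00599%) and 34 were lower (0.204%). An unadjusted p under 0.05 was found for 2536. A call meant an adjusted p under 0.05 and a log2 difference over 1 in size. Both the count and its split depended strongly on the fit, as set out in the last section, so few calls do not mean little change. The study's own DESeq2 test on counts, at the same thresholds, reported many more genes in both directions, most of them lower. The gene lists here and below were chosen with earlier results of these data known, so their counts, medians and p-values are descriptions. Of 36 other early response genes tested (42 listed), 0 were called and 6 had an unadjusted p under 0.05. These included KLF4, a factor of epithelial differentiation, at 17.3 and 15.1 TPM in DMSO against 2.82 and 3.62 TPM in I-BET151 (log2 difference -2.03, adjusted p = 0.0829). They also included CEBPD (-1.61, adjusted p = 0.176), ZFP36 (-1.12, adjusted p = 0.208), MAFF (-1.08, adjusted p = 0.216), NR4A2 (1.06, adjusted p = 0.192) and RHOB (1.03, adjusted p = 0.288). The list's median difference was 0.04 against 0.16 over all genes tested. MYC, whose transcription is often tied to BET proteins, was at 105 and 82.1 TPM in DMSO, with 175 and 108 TPM under I-BET151.

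Of the 20 kinases and transcription factors that act upstream, 0 were called and 1 had an unadjusted p under 0.05. This was MAPK3, which encodes the kinase ERK1, at 123 and 77.7 TPM in DMSO against 16.03 and 14.4 TPM in I-BET151 (log2 difference -2.61, adjusted p = 0.0711). The other AP-1 and ATF partners gave 0 calls among 10 tested of 13, with 3 at an unadjusted p under 0.05 and a median of -0.34. Genes known as AP-1 targets gave 0 calls among 15 tested of 20, with 8 at an unadjusted p under 0.05. Their differences were below 0 for 13 of 15, with a median of -1.04. MMP1, a collagenase, was at 1291 and 717 TPM in DMSO against 15.0 and 36.0 TPM in I-BET151 (log2 difference -5.31, adjusted p = 0.0548). TIMP1, an inhibitor of metalloproteinases, stood at 98.5 and 77.6 TPM against 20.6 and 17.7 TPM (-2.14, adjusted p = 0.0795). The DMSO and I-BET151 libraries did not overlap for either gene.

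Markers of other cell types differed between the same groups. Mesenchyme markers (10 genes) summed to 256 and 132 TPM in DMSO and to 92.2 and 59.3 TPM in I-BET151, and LUM was called lower (log2 difference -3.37, adjusted p = 0.048). DCN, a defining marker, was at most 3.02 TPM in DMSO and 0.261 TPM in I-BET151. The 6 blood cell markers summed to 250 and 256 TPM in DMSO and to 15.1 and 23.5 TPM in I-BET151, most of it CD68 and LYZ. The globin genes HBB and HBA1 stood at 13.6 and 7.77 TPM in DMSO replicate 2, and each was at most 0.51 TPM in the other libraries of batch 3. CD68 was called lower (-3.62, adjusted p = 0.048), while PTPRC, which marks all white blood cells, was at most 0.0138 TPM in every one of the 4 libraries. The 7 endothelial markers summed to at most 3.50 TPM there. The part of the mesenchyme markers in the lower FOSL1, JUNB and target genes was not tested.

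Early and late ePPs were compared within batch 2. Of the 10 genes, 7 overlapped between ePP-P9 and ePP-P21, JUND was higher in both ePP-P21 libraries, and JUNB and IER2 were lower in both. Over all 15822 genes tested, 54.4% did not overlap (41.3% higher and 13.1% lower), so 3 of 10 was no more than the background. JUND was 177 and 185 TPM at passage 9, compared with 198 and 232 TPM at passage 21, a log2 difference of 0.24 (SE 0.12). IER2 differed by -0.89 (SE 0.33) and JUNB by -0.54 (SE 0.43). FOS differed by -1.13 (SE 2.26) on the log2 scale, while its mean TPM was 1.14 times higher in ePP-P21. The sign for FOS depends on which ePP-P21 library is used, with -3.39 without replicate 2 and 1.13 without replicate 1. The direction of JUN, EGR1 and IER3 (log2 differences from 0.04 to 0.13, with all genes at a median of 0.13) turned under median centring and quantile normalization.

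By limma, 178 of 15822 genes (1.13%) were called between passages, 169 higher (1.07%) and 9 lower (0.0569%). In the other early response genes, 1 of 33 tested was called. This was CEBPD, a C/EBP factor of acute responses, at 10.9 and 11.2 TPM at passage 9 against 28.5 and 25.5 TPM at passage 21 (log2 difference 1.22, adjusted p = 0.035). Upstream regulators gave 0 calls of 19 tested and 1 at an unadjusted p under 0.05, and the AP-1 and ATF partners 0 of 9 and 6. Among AP-1 targets 1 of 11 was called, VEGFA, the vascular growth factor, at 51.4 and 63.9 TPM against 131 and 152 TPM (log2 difference 1.29, adjusted p = 0.035). Both calls were lost when either ePP-P21 library was left out and when libraries were centred on their median.

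The differentiation of ePPs was compared between the 2 ePP-β libraries and the 4 ePP libraries of batch 2, which share the ePP libraries with the comparison of passages. FOS and EGR1 showed the widest gaps. FOS averaged 168 ± 136 TPM (SD, n = 4) in ePPs and 2.98 ± 0.184 TPM (n = 2) in ePP-β, and even its lowest ePP value was 4.50 times its highest ePP-β value. EGR1 averaged 22.4 ± 10.3 and 0.437 ± 0.066 TPM, a ratio of 51.2 with a gap of 24.7 times. On the log2(TPM + 1) scale FOS differed by -4.74 (SE 1.60) and EGR1 by -3.92 (SE 0.54). The FOS difference was -3.61 without ePP-P21 replicate 2 and -5.87 without replicate 1. IER2 (-1.88, SE 0.24), IER3 (-1.49, SE 0.19), FOSL1 (-1.06, SE 0.23) and JUND (-0.66, SE 0.08) were also lower in both ePP-β libraries. FOSB differed by -1.25 (SE 0.98) and overlapped.

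JUN, JUNB and ATF3 were higher in ePP-β. JUN averaged 37.6 ± 5.33 TPM (n = 2) against 21.6 ± 6.53 TPM (n = 4), a log2 difference of 0.81 (SE 0.35). JUNB differed by 0.69 (SE 0.31) and ATF3 by 0.68 (SE 0.26). Thus 6 genes were lower and 3 higher without overlap, beside 31.6% lower and 32.2% higher of all 18076 genes tested, and 63.8% in either direction. Since the genes were chosen with these values known, nothing is read from those counts. FOSB, FOSL1 and EGR1 passed the filter on low values through the ePP libraries alone. The SC-β library of batch 1 held 2.24 TPM FOS, 1.60 TPM EGR1 and 47.4 TPM JUN, beside PP2 at 34.0, 37.0 and 46.3 TPM.

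**Figure D4:**
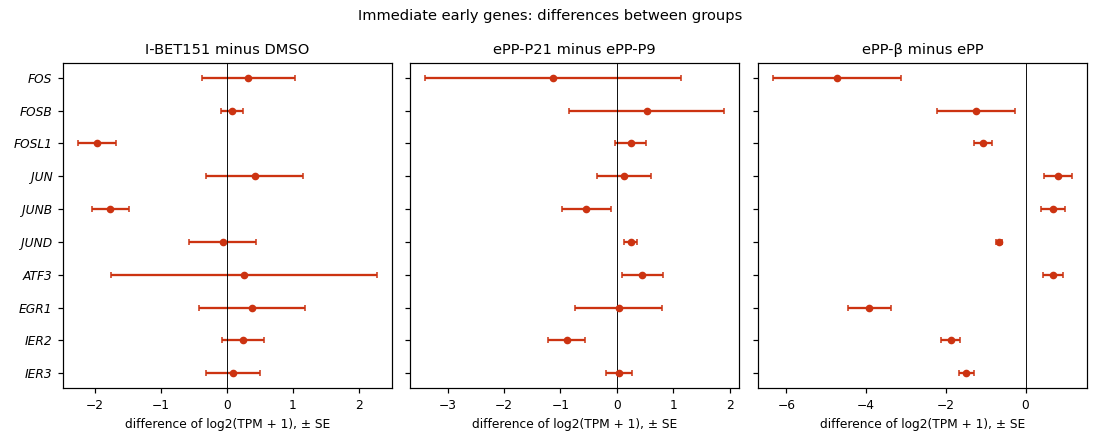
Difference of log2(TPM + 1) with its standard error from the replicates for the 10 genes in 3 comparisons within a batch (2 against 2, 2 against 2 and 2 against 4 libraries). FOSL1 and JUNB are lower with I-BET151, IER2 lies farthest from 0 relative to its SE between passages, and FOS and EGR1 differ most between ePP-β and ePPs.

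Genes around the response moved in both directions between ePPs and ePP-β. By limma 5020 of 18076 genes (27.8%) were called, 3237 higher (17.9%) and 1783 lower (9.86%). The split was 2924 higher and 2377 lower under median centring and 2592 higher and 2866 lower under quantile normalization, which moved the median of all genes from -0.03 to -0.17 and -0.19. Of 36 other early response genes tested, 11 were called, 5 higher and 6 lower, with a median of -0.31. Those that fell were led by MYC, a transcription factor of cell growth (140, 151, 102 and 152 TPM in ePPs, 17.6 and 18.0 TPM in ePP-β, log2 difference -2.85, adjusted p = 4.73e-05). BTG2 (-1.54, adjusted p = 0.000224), DUSP5, an ERK phosphatase (-1.40, adjusted p = 6.31e-05), HBEGF, an EGF receptor ligand (-1.32, adjusted p = 0.00179), ZFP36L1 (-1.21, adjusted p = 0.00315) and PER1 (-1.09, adjusted p = 0.00315) also fell. Those that rose were CXCL8, the chemokine interleukin-8 (listed at 0 in the 4 ePP libraries, 16.9 and 22.3 TPM in ePP-β, adjusted p = 1.53e-05), TNFAIP3, an inhibitor of NF-κB (2.55, adjusted p = 0.000275), MAFF (1.80, adjusted p = 0.000736), TRIB1 (1.22, adjusted p = 0.000715) and ARC (1.12, adjusted p = 0.000728).

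Upstream, 1 of 20 regulators was called, beside 27.8% of all genes tested. MAPK3 rose from 10.8, 9.41, 9.18 and 9.60 TPM in ePPs to 119 and 108 TPM in ePP-β (log2 difference 3.41, adjusted p = 7.59e-06). It was also higher in DMSO (123 and 77.7 TPM) than in I-BET151 (16.03 and 14.4 TPM). Loss of the inhibitor and differentiation therefore cannot be told apart here. SRF, which binds the CArG boxes, stood at 30.8 to 34.6 TPM in ePPs and 19.9 and 21.3 TPM in ePP-β and was not called. Among partners, 4 of 11 tested were called, all higher. They included BATF2 (2.54, adjusted p = 7.87e-05), DDIT3 (1.36, adjusted p = 0.00168) and MAF (1.17, adjusted p = 0.000503).

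Known AP-1 targets gave 8 calls among 14 tested, 7 higher and 1 lower, beside 27.8% of all genes called. Their median was 1.18 against -0.03 over all genes. Since the list was chosen with earlier results of these data known, nothing is read from this count or median. MMP10 (log2 difference 3.63, adjusted p = 5.91e-05), MMP1 (2.77, adjusted p = 0.000135), HMOX1, which breaks down heme (2.29, adjusted p = 6.1e-05), TIMP1 (2.04, adjusted p = 4.67e-05) and VEGFA (1.61, adjusted p = 0.00253) rose. SPP1 was also called higher (1.45, adjusted p = 0.00139). KRT18, a keratin of simple epithelia, fell (-1.71, adjusted p = 1.45e-05). MMP1, also high in DMSO, thus stood at 49.6 and 65.0 TPM in ePP-β, where FOS was at its lowest in batch 2. Blood cell markers summed to 14.04 to 17.6 TPM in ePPs and 137 and 147 TPM in ePP-β, again with PTPRC at most 0.0137 TPM. The mesenchyme markers summed to 59.6 to 95.2 TPM and to 59.2 and 47.1 TPM. The endothelial markers summed to at most 1.67 TPM in ePPs and to 17.6 and 6.38 TPM in ePP-β, nearly all of it CLDN5 (16.95 and 5.82 TPM), with PECAM1 and CDH5 under 0.1 TPM in each library. Their part in these differences was not tested.

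**Figure D5:**
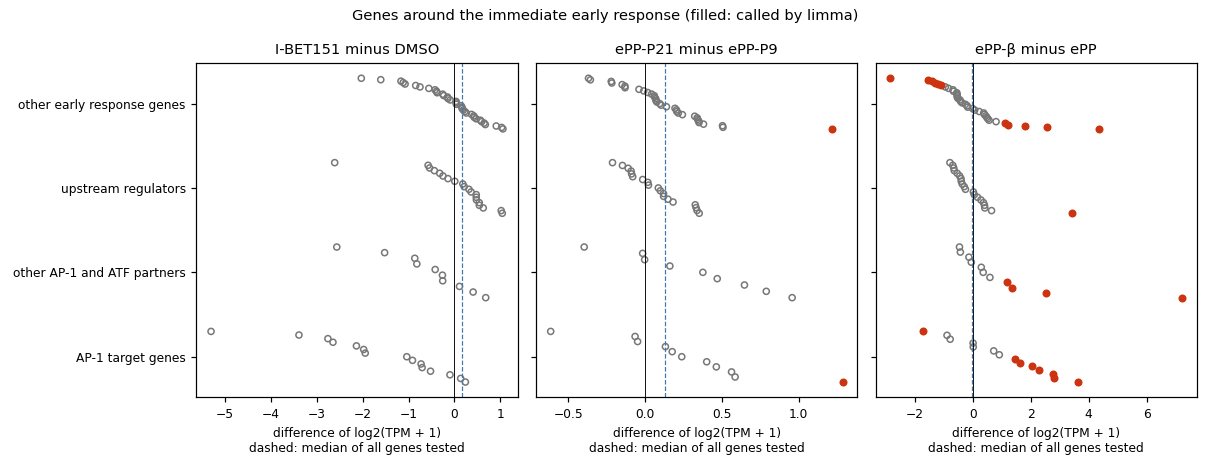
Difference of log2(TPM + 1) for each tested gene of 4 lists (other early response genes, upstream regulators, AP-1 and ATF partners, AP-1 target genes) in the 3 comparisons, with genes called by limma filled and the median of all genes dashed. Known AP-1 targets lie mostly below 0 for I-BET151 without a call. They lie mostly above 0 for ePP-β, where 8 of 14 are called, beside 27.8% of all genes tested.

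The genes whose pattern was most like FOS over the 14 libraries, among 12270 genes at or above 10 TPM in at least 2 libraries, were ENSG00000274021 (Pearson correlation 0.91), NEIL3, a DNA repair glycosylase (0.89), HDAC3, a histone deacetylase (0.89), DUSP6, a phosphatase specific to ERK (0.88), and RPP14 (0.87). Without ePP-P21 replicate 2 and SC-β, the libraries farthest from the median of FOS, these correlations were between 0.83 and 0.90. DUSP6 ranged from 4.50 to 305 TPM. For FOSL1 the nearest were PYGL, liver glycogen phosphorylase (0.90), DEF6 (0.88), STEAP3, an iron reductase (0.87), LITAF (0.87) and RGS10 (0.87). These fell to between 0.63 and 0.82 when hPSC and ePP-β replicate 1, the libraries farthest from the median of FOSL1, were left out together. The points share groups and batches, and the correlations are descriptions.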

How the data were processed

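RNA sequencing of 14 libraries was analysed, grouped by sample title. Per the study's methods the authors aligned paired reads to GRCh38 with HISAT2 2.1.0, ran StringTie for assembly and gave expression per gene identifier. The deposited values are TPM, corrected for transcript length and not scaled further between libraries. Strand setting and annotation release are not given in the sources used here, and all 37 mitochondrial genes are listed at 0, so an exact 0 is given only as listed. Depth is unknown, and precision rests on the 2 libraries per group.

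Identifiers were matched to GENCODE release 44 (60370 of 60624). Genes at or above 1 TPM in at least 2 libraries of a comparison were tested on log2(TPM + 1) with limma 3.58.1 (R 4.3.3, trended prior, Benjamini-Hochberg adjustment over all genes), within a batch. The authors' DESeq2 needs counts and was not run. The fit was tested on simulated data. Genes of each list were named by size of the difference among those called, up to 6 in each direction, and the 5 genes most like FOS and FOSL1 by Pearson correlation. The members and lists were chosen with earlier results of these data known. Alternatives were a pseudocount of 0.1, a filter of 5 TPM, no filter, median centring, quantile normalization, a replicate block and leaving out each library. Some genes of the lists enter the counts but are not reported here by name.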

Additional observations from a re-analysis of the deposited data

How the results depend on the processing

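For I-BET151 against DMSO the 35 calls became 0 with a pseudocount of 0.1 (2462 genes at an unadjusted p under 0.05), 0 without a filter (4535), 120 under median centring and 138 under quantile normalization, and ranged from 107 to 1034 when 1 library was left out. The early response list had 0 calls in these settings but 0 to 2 when 1 library was left out. For ePP-P21 against ePP-P9 the 178 calls became 0 without a filter (4677 at an unadjusted p under 0.05), 0 under median centring (4176) and 13 under quantile normalization, and ranged from 0 (without ePP-P21 replicate 1) to 478 (without ePP-P9 replicate 2). The 1 early response gene called, CEBPD, was lost in these 3 settings, and the count was 0 to 1 with 1 library left out. The cause was not tested. For ePP-β against ePPs the total and the early response count stayed within 1.5 times the reported ones, while the lower calls went from 1783 to 2866 under quantile normalization.

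A fit with the replicate block gave 2294 calls (828 higher and 1466 lower, a less one-sided split than 1 and 34) and 6 early response genes (NR4A2 and RHOB higher, KLF4, ZFP36, MAFF and CEBPD lower) for I-BET151, and 66 and 0 for the passages. It called 8 AP-1 targets lower with I-BET151, and MAPK3. Replicate deviations of DMSO and I-BET151 correlated at 0.68 over genes, those of the ePP groups between -0.01 and 0.04, and the labels do not say that a number marks a shared culture, so the numbers were not taken as pairs.

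Of 312 alternative values for the 10 genes, 305 moved by less than 1 SD and 7 by more. The SD was the gene's own residual SD in the main fit. In a comparison of 2 against 2 libraries, leaving out 1 library cannot move a value by more than this SD. Those values were bound to count as unmoved, so the tally says little about stability. The signs of FOSL1 and JUNB with I-BET151 held in each alternative that could be run (FOSL1 failed the filter without a DMSO library), and all 10 signs for ePP-β held. With a pseudocount of 0.1 FOSL1 differed by -3.28 with I-BET151, and EGR1, FOSB and FOSL1 by -5.28, -2.76 and -2.003 in ePP-β. Signs changed at least once for 7 genes with I-BET151 and 6 between passages. Depth is unknown, so low values such as FOSB carry no counting error.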
